A study of Oryza sativa Japonica Group with 30 samples.

Results

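Leaves of droughted rice were compared between OE-19, a line that overexpresses SNAC1, and its parent variety Zhonghua 11 (ZH11). OE-19 carries the complete SNAC1 reading frame behind a maize ubiquitin promoter in the ZH11 background, and ZH11 is the wild type without the transgene. The OE-19 libraries from plants deprived of water are named SNAC1-D (3 libraries) and the matching ZH11 libraries ZH11-D (3 libraries). They were chosen by their labels and make up 6 of the 30 samples of the series and 6 of its 12 RNA-Seq libraries. Plants of both genotypes shared pots, and from the 4-leaf stage the droughted ones received no water for 10 to 15 days, until leaves curled and yellowed. Well-watered libraries of both genotypes, SNAC1-N and ZH11-N (3 each), were set beside them. OE-19 is 1 transgenic line, so that an effect of SNAC1 and an effect of the transformation or the insertion site cannot be told apart.

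SNAC1 is a NAC transcription factor of rice, known for closing stomata and improving survival under drought when it is overexpressed. Plants short of water accumulate the hormone abscisic acid (ABA). Its receptors then inhibit the clade A PP2C phosphatases, which frees SnRK2 kinases to activate bZIP factors. These and the NAC, DREB and zinc finger factors switch on genes for protective proteins, osmolytes and redox enzymes, while growth and photosynthesis genes are turned down. The comparison asks which of these genes differ in transcript level between the genotypes once both are under drought.

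Transcript levels are given as FPKM, fragment numbers scaled to transcript length and to the mapped reads of the library. The log2 fold change (log2FC) is SNAC1-D minus ZH11-D on the scale of log2(FPKM + 0.5), which understates the change of weakly expressed genes. Genes were called differentially expressed (DEGs) where the log2FC reached 1 in either direction and limma's Benjamini-Hochberg adjusted p, taken over the 19979 features tested, was below 0.05. No fragment counts were given, so the depth is unknown. A leaf piece holds several cell types, and a lower share of one cell type cannot be told apart from less RNA per cell.

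The libraries ranked the features alike within and between the genotypes. Spearman's rho over the features tested was 0.968 to 0.984 among the SNAC1-D libraries and 0.957 to 0.988 among the ZH11-D libraries. Between the genotypes it was 0.98 to 0.983 for libraries of the same number and 0.956 to 0.982 for libraries of different numbers. All 5 green leaf markers were present, with a summed level of 1820 to 2670 FPKM in SNAC1-D, against 1880 to 3450 FPKM in ZH11-D. The largest part came from OsbetaCA1, with 735 to 1350 FPKM in SNAC1-D and 734 to 1990 FPKM in ZH11-D. The 5 root and floral markers summed to 39.1 to 49.2 FPKM in SNAC1-D, against 32.3 to 39.2 FPKM in ZH11-D. Most of that came from the phosphate transporter OsPT1, and the floral regulator OsMADS6 stood at 0.093 FPKM or less in SNAC1-D and 0.154 FPKM or less in ZH11-D. OsMADS14 had 4.74 to 6.12 FPKM in SNAC1-D and 4.38 to 5.91 FPKM in ZH11-D. For qSH1 the levels were 5.68 to 6.9 FPKM and 5.06 to 6.72 FPKM, and for WOX11 0.241 to 0.488 FPKM and 0.225 to 0.283 FPKM. The part of these differences in the results was not tested.

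The overexpressed gene itself did not pass the DEG thresholds between the droughted genotypes. SNAC1 (LOC_Os03g60080, chromosome 3) had 667, 981 and 747 FPKM in SNAC1-D1, D2 and D3, against 329, 530 and 430 FPKM in ZH11-D1, D2 and D3. The groups did not overlap, and within the pairs of equal number the SNAC1-D level was 2.03, 1.85 and 1.74 times that of ZH11-D. The log2FC was 0.90 (95% confidence interval 0.34 to 1.46), and limma gave an adjusted p of 0.949. With the replicate number as a block within each watering condition the interval narrowed to 0.62 to 1.18 and the limma adjusted p was 0.0483, while the log2FC remained under the threshold of 1. An exact permutation test over the 6 libraries gave p = 0.1 (two-sided), the smallest that 3 libraries against 3 allow. The FPKM value counts reads of the transgene and of the native gene together. In the watered plants SNAC1 had 764, 995 and 781 FPKM in SNAC1-N, against 27.2, 44.8 and 39.7 FPKM in ZH11-N.

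Few genes separated the droughted genotypes. Of the 19979 features, 61 (0.305%) were DEGs, of which 54 (0.27%) were higher and 7 (0.035%) lower in SNAC1-D. With the block the count was also 61 (0.305%), with 53 higher (0.265%) and 8 lower, and 55 genes were called in both fits. At an unadjusted p under 0.05, limma counted 296 features (1.48%) without the block and 1042 (5.22%) with it. The 3 libraries of one genotype lay wholly above or below those of the other in 1248 features (6.25%), higher in SNAC1-D in 3.06% and lower in 3.19% of all features. This held for all 61 DEGs, as their selection favours.

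The higher DEGs were weakly expressed in ZH11 in many cases. Their SNAC1-D means ran from 1.62 to 129 FPKM with a median of 8.02 FPKM, against ZH11-D means of 0 to 6.04 FPKM with a median of 0.122 FPKM. All 3 ZH11-D libraries were listed at 0 in 11 of these genes, and all 6 ZH11 libraries, watered ones included, stayed under 0.5 FPKM in 27 of 54. In 23 of the 54 some ZH11 library reached 1 FPKM. Many of them therefore passed the filter on low values through the SNAC1 libraries alone, and their count and median carry no further weight. Of the 2557 features with a mean of at least 50 FPKM over the 12 libraries, 13 were also listed at 0 in some library. Whether a listed 0 is a failed estimate or a gene that is off was not tested. The 7 lower DEGs had means of 0.284 to 5.4 FPKM in SNAC1-D, against 2.89 to 21.4 FPKM in ZH11-D.

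**Figure D1:**
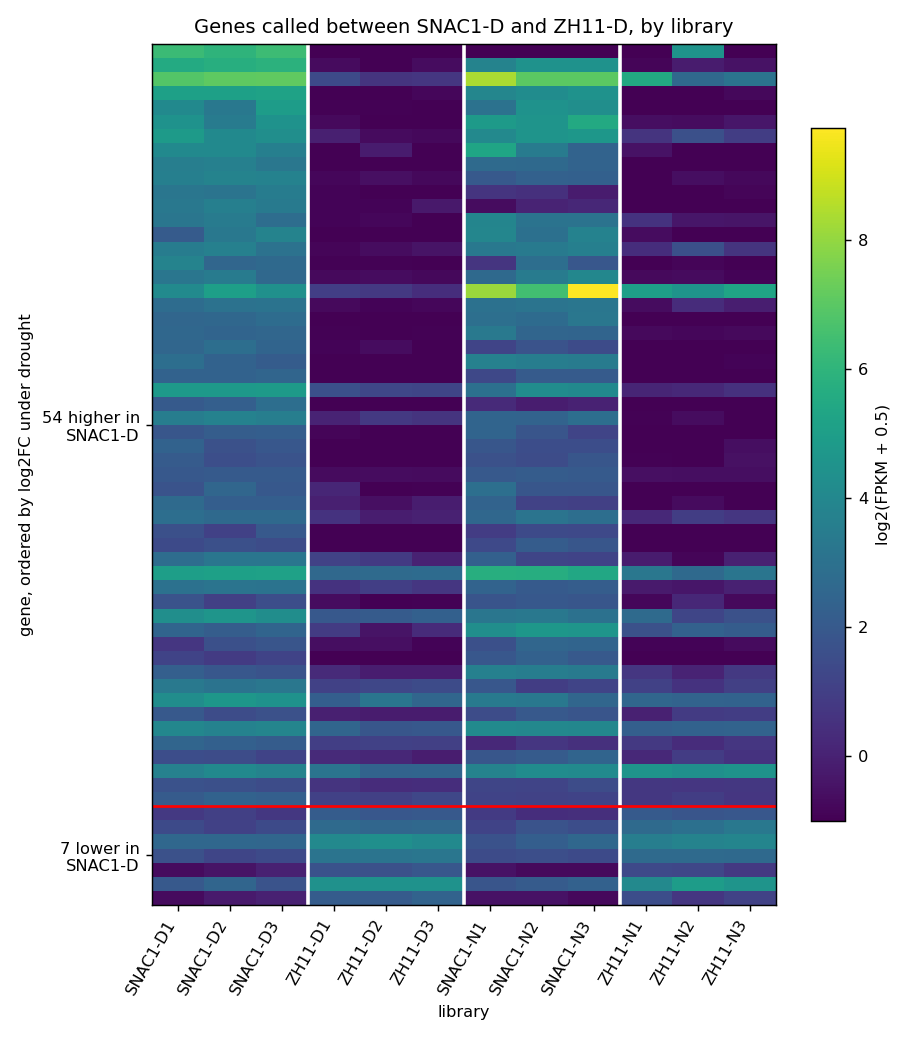
Heat map of the 61 DEGs (rows, ordered by log2FC under drought) over the 12 RNA-Seq libraries (columns), coloured by log2(FPKM + 0.5). The 54 genes above the red line are brighter in the 3 SNAC1-D libraries than in the 3 ZH11-D libraries and the 7 below it darker, and most show the same contrast between SNAC1-N and ZH11-N.

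The annotation used here pairs only 1 of the 61 DEGs with a gene name, and the others with the smallest p-values are given by their identifiers alone. LOC_Os03g43100 (chromosome 3), with the smallest p-value, had 34.1, 34.0 and 35.7 FPKM in SNAC1-D, against 0, 0 and 0.0681 FPKM in ZH11-D (limma adjusted p = 2.54e-08). LOC_Os07g26100 (chromosome 7) had 11.5, 12.1 and 9.1 FPKM in SNAC1-D and was listed at 0 in every ZH11-D library (limma adjusted p = 2.2e-07). Both were thus on in every SNAC1-D library and at or near 0 in every ZH11-D library. The watered plants showed the same contrast. LOC_Os03g43100 had 14.5 to 21.5 FPKM in SNAC1-N, against 0 to 0.0874 FPKM in ZH11-N. LOC_Os07g26100 had 4.77 to 6.05 FPKM in SNAC1-N and was listed at 0 in ZH11-N. Both genes met the filter on low values only through the SNAC1 libraries, and their ZH11 values hold almost no spread. Their p-values are therefore given as a description.

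Among the lower DEGs, LOC_Os10g29650 (chromosome 10) had 2.71, 1.90 and 2.17 FPKM in SNAC1-D, against 8.2, 8.14 and 8.85 FPKM in ZH11-D. It fell by 1.70 on that scale, with a standard error of 0.12 (limma adjusted p = 5.08e-05). LOC_Os03g20740 (chromosome 3) had 0.12, 0.356 and 0.499 FPKM in SNAC1-D, against 3.82, 3.69 and 4.90 FPKM in ZH11-D, and fell by 2.51 (standard error 0.25, limma adjusted p = 0.000773). Neither gene showed any overlap between the genotypes. Both were also lower in the watered overexpressor. LOC_Os10g29650 had 2.18 to 2.45 FPKM in SNAC1-N, against 5.93 to 6.05 FPKM in ZH11-N. LOC_Os03g20740 had 0.1 to 0.227 FPKM in SNAC1-N, against 1.12 to 2.39 FPKM in ZH11-N.

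The named DEG was OsWRKY45 (LOC_Os05g25770, chromosome 5), a central regulator of salicylic acid dependent defence in rice. It had 12.8, 16.7 and 13.6 FPKM in SNAC1-D, against 8.31, 4.86 and 4.97 FPKM in ZH11-D. Every SNAC1-D library lay above every ZH11-D library, and the smallest gap within a pair of equal number was in number 1. The log2FC was 1.21 (standard error 0.21, 95% confidence interval 0.76 to 1.67, limma adjusted p = 0.0441). With the replicate block the limma adjusted p was 0.181, and the call was lost. Over 17 alternatives that kept all 6 drought libraries the limma adjusted p was 0.0439 to 0.426, and 5 of the 17 kept the call. The value of 0.426 came from the 6 drought libraries alone, with the block. The call was also lost without any one of 5 of the 6 drought libraries, with limma adjusted p values of 0.116 to 0.26. It was kept only without ZH11-D1. In watered plants the order was turned round, with 13.3, 18.3 and 17.1 FPKM in SNAC1-N, against 23.2, 20.1 and 22.4 FPKM in ZH11-N. The watered log2FC was -0.43, and OsWRKY45 was not a DEG between SNAC1-N and ZH11-N. The difference between the genotype effects was 1.64 on the log2 scale, with a limma adjusted p of 0.438 and an unadjusted p of 0.000197.

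The watered libraries entered the drought comparison through the filter on low values, which was taken over all 12 libraries, and through the shared estimate of spread. Of the 61 DEGs, 60 also had a mean of at least 1 FPKM over the 6 drought libraries alone. Since many of them were near 0 in all ZH11 libraries, the following counts are given as a description. Of the 61 DEGs, 45 were also DEGs between SNAC1-N and ZH11-N in the same direction, 38 higher and 7 lower, where 53 of all features (0.265%) were called, with 0.22% of all features called higher in SNAC1-N. The shared genes made up 73.8% of the drought DEGs and 84.9% of the watered ones. In 58 of the 61 genes the sign was the same in both conditions, against 54.5% of all features tested. The watered groups did not overlap and differed in the same direction in 56, and 3.08% of all features had watered groups that did not overlap.

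**Figure D2:**
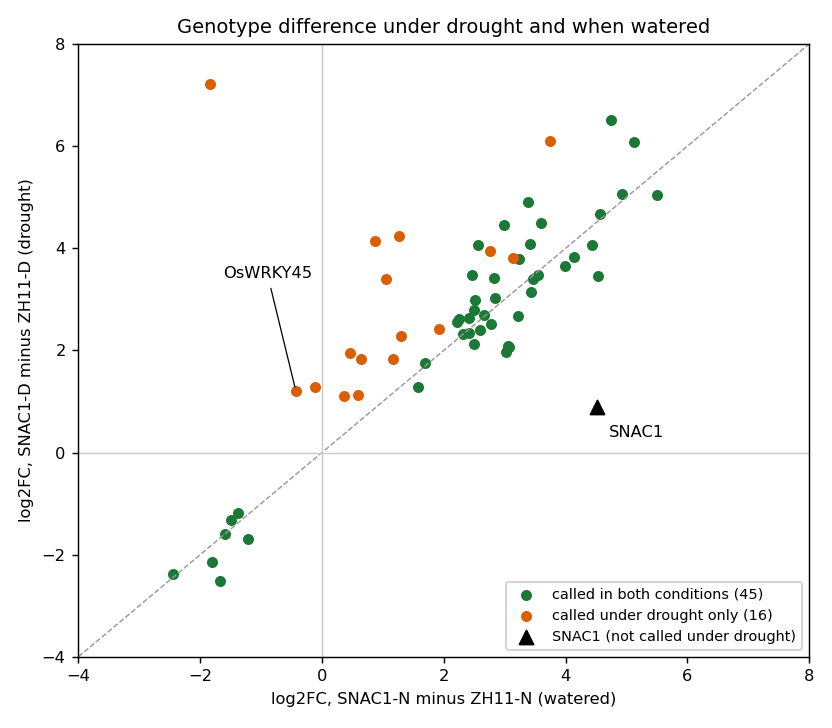
Genotype log2FC of each of the 61 DEGs under drought (vertical axis, SNAC1-D minus ZH11-D) and when watered (horizontal axis, SNAC1-N minus ZH11-N), with the dashed line marking equal values and the black triangle SNAC1. The 45 genes called in both conditions scatter around the line, while OsWRKY45 is above 0 on the vertical axis and below 0 on the horizontal one, and SNAC1 stands at 0.90 and 4.51.

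The other 16 DEGs were not called in the watered plants, with watered log2FC values of -1.84 to 3.75. A test of the difference between the 2 genotype effects passed in 4 features overall (0.02%), chosen after their values were seen, and 2 of these were drought DEGs. LOC_Os05g12120 (chromosome 5) had 9.35, 11.9 and 10.3 FPKM in SNAC1-D, against 0.0311, 0.0367 and 0.336 FPKM in ZH11-D. In watered plants it reached only 0.145, 0.548 and 0.638 FPKM in SNAC1-N and was listed at 0 in ZH11-N. The newly assembled locus newGene_1947 had 8.65, 8.34 and 10.9 FPKM in SNAC1-D, against 0.0362, 0 and 0 FPKM in ZH11-D, and 1.02, 0.891 and 0.386 FPKM in SNAC1-N, against 0, 0 and 0.0461 FPKM in ZH11-N. In both the genotype gap was wider under drought, by 3.27 (limma adjusted p = 0.0204) and 2.99 (limma adjusted p = 0.0168) on the log2 scale. Both met the filter on low values only through the SNAC1-D libraries, where they are high, so these p-values are given as a description. With the replicate block, where 0.01% of all features passed, neither did (limma adjusted p = 0.121 each). The features that passed with the block were SNAC1 and LOC_Os02g15110 (chromosome 2). LOC_Os02g15110, also named after its values were seen, had 3.9, 3.87 and 3.99 FPKM in SNAC1-D, against 4.37, 4.87 and 5.63 FPKM in ZH11-D, and 26.3, 3.21 and 4.04 FPKM in SNAC1-N, against 9.33, 0.679 and 1.13 FPKM in ZH11-N. Its difference was -1.82 (limma adjusted p with the block 0.0433, without it 1).

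The 26 gene lists of stress pathways, from ABA signalling to cell walls, held 282 distinct members that were tested, with log2FC values between -0.61 and 1.21. The members were drawn from the 576 genes that the study names with MSU identifiers, so the lists do not cover whole pathways. Besides SNAC1, 503 genes are on the study's list of published genes with a SNAC1 peak. OsWRKY45 was the only DEG among the tested members, and no member was a DEG with the block. Only 1 of the 61 DEGs has a name in the study, so the lists could hold no other. At an unadjusted p under 0.05 limma counted 2 members (0.709%, against 1.48% of all features) without the block and 17 (6.03%, against 5.22%) with it. Groups without overlap occurred in 16 members (5.67%, against 6.25% of all features). With the block, the 95% confidence interval lay within 1 on either side of 0 on the log2 scale for 263 members (93.3%), and without it for 179 (63.5%). The list medians lay between -0.21 and 0.27, against -0.02 for all features. As background for the signs within lists, 11177 of the 19979 features had a negative log2FC and 8802 a positive one.

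ABA synthesis and breakdown had 7 tested members, of which none was called, and a median log2FC of -0.16. OsNCED3, which cleaves carotenoids in the limiting step of ABA synthesis, had 22.4, 29.5 and 19.7 FPKM in SNAC1-D, against 21.8, 27.6 and 23.5 FPKM in ZH11-D. OsABA8ox1, a hydroxylase that inactivates ABA, had 15.3, 18.9 and 14.2 FPKM in SNAC1-D, against 18.3, 23.8 and 17.8 FPKM in ZH11-D. The groups overlapped for both genes, although each SNAC1-D library was below the ZH11-D library of its number for OsABA8ox1 (log2FC -0.30, limma adjusted p = 1 and with the block 0.998). For PSY1, the phytoene synthase upstream of ABA, the log2FC was -0.16.

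The ABA receptor, phosphatase and kinase list had 8 tested members, a median of -0.09 and no call. The clade A phosphatase OsPP2C49 had 246, 311 and 282 FPKM in SNAC1-D, against 250, 309 and 306 FPKM in ZH11-D. In watered leaves it stood at 12.8 to 16.9 FPKM in SNAC1-N and 15.8 to 16.7 FPKM in ZH11-N. Its drought level was thus high in both genotypes and the 6 libraries overlapped, with a log2FC of -0.04 (95% confidence interval -0.37 to 0.29). OsPP2C50 and OsABI2, of the same clade, had a log2FC of -0.16 and -0.17, and each was lower in SNAC1-D in all 3 pairs.

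Downstream of the kinases, the bZIP and homeobox list had 8 tested members, all with a negative log2FC and none called. OsbZIP23, a leading activator of ABA responses, had 102, 106 and 93.0 FPKM in SNAC1-D, against 106, 129 and 109 FPKM in ZH11-D. The groups met at 106 FPKM, and the log2FC was -0.19 (95% confidence interval -0.70 to 0.32). The homeobox gene OsHOX24 had 299, 332 and 261 FPKM in SNAC1-D, against 263, 365 and 320 FPKM in ZH11-D, with full overlap. MODD, which restrains the bZIP factor OsbZIP46, had 17.8, 27.3 and 18.8 FPKM in SNAC1-D, against 18.6, 32.6 and 26.3 FPKM in ZH11-D, and was lower in SNAC1-D in all 3 pairs (limma adjusted p with the block 0.933).

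The NAC list, without SNAC1, had 12 tested members, 6 with a positive and 6 with a negative log2FC. OMTN6, one of the NAC genes that miR164 targets, had the lowest log2FC of all list members. It had 1.74, 2.41 and 1.80 FPKM in SNAC1-D, against 1.66, 6.33 and 3.11 FPKM in ZH11-D, and its log2FC was -0.61 (limma adjusted p = 1 and with the block 0.835). The difference lay in numbers 2 and 3, and number 1 had it the other way. OsNAC10 had 32.5, 30.6 and 23.1 FPKM in SNAC1-D, against 31.7, 26.3 and 20.4 FPKM in ZH11-D, and OsNAC5 had a log2FC of -0.22. OsNAC10 and ONAC131 are close relatives on chromosomes 11 and 12, and reads may have been divided between them.

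The list of dehydrins, LEA proteins and membrane-protecting proteins had 4 tested members, all with a negative log2FC and none called, and a median of -0.20, which was -0.0065 without ZH11-D2. OsRCI2-5, a small hydrophobic membrane protein, had 1620, 1880 and 1530 FPKM in SNAC1-D, against 1500, 2570 and 2200 FPKM in ZH11-D. In watered leaves it had 8.78 to 38.2 FPKM in SNAC1-N and 11.2 to 32.0 FPKM in ZH11-N. The dehydrin OsDhn1 had 864, 1220 and 760 FPKM in SNAC1-D, against 703, 1660 and 1220 FPKM in ZH11-D. In both genes SNAC1-D was above ZH11-D in number 1 and below it in numbers 2 and 3. OsLti6b, a relative of OsRCI2-5, had a log2FC of -0.13.

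OsSRO1c, which acts in stomatal closure and oxidative stress, showed the same split. It had 108, 132 and 75.2 FPKM in SNAC1-D, against 71.9, 244 and 139 FPKM in ZH11-D, and the log2FC was -0.40 (95% confidence interval -1.5 to 0.71). Without ZH11-D2 its log2FC was 0.03. The redox list had 15 tested members, a median of -0.10 and no call. Its lowest p-values were those of the glutathione peroxidase OsPHGPX, with a log2FC of -0.32, and of OsVTC1-3 of ascorbate synthesis, with 0.23.

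The DREB and ERF list had 17 tested members and a median of -0.11, and the MYB and zinc finger list 15 and -0.10, with no call in either. OsDREB4-1, of the DREB family, had 6.11, 3.29 and 4.02 FPKM in SNAC1-D, against 5.69, 1.89 and 2.53 FPKM in ZH11-D. It was higher in SNAC1-D in all 3 pairs (log2FC 0.45, limma adjusted p with the block 0.93), though the groups overlapped. The ethylene response factors OsERF3 and OsERF922 had log2FC values of -0.20 and -0.16. The zinc finger genes ZFP15 and ZFP182 had log2FC values of -0.60 and -0.35 and were below ZH11-D in 2 of 3 pairs.

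In the heat shock list, with 6 tested members, the class B factor OsHsfB2b was lower in SNAC1-D in every pair. It had 77.3, 105 and 108 FPKM in SNAC1-D, against 105, 131 and 137 FPKM in ZH11-D. SNAC1-D3 lay above ZH11-D1, so that the groups overlapped. Its log2FC was -0.37, with a limma adjusted p of 1, and with the block 0.398 (unadjusted 0.00323). OsHSFA2d, of class A, had a log2FC of -0.14.

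The WRKY list, with 9 tested members, held both of the list members whose log2FC reached 1. Beside OsWRKY45, OsWRKY76 (LOC_Os09g25060, chromosome 9), a repressor of blast defence that also acts in cold tolerance, had 5.32, 5.91 and 4.08 FPKM in SNAC1-D, against 3.09, 1.22 and 2.04 FPKM in ZH11-D. The groups did not overlap. The log2FC was 1.15 (95% confidence interval 0.16 to 2.13, limma adjusted p = 1 and with the block 0.398). In watered leaves it had 2.92, 10.1 and 8.2 FPKM in SNAC1-N, against 5.52, 12.8 and 8.14 FPKM in ZH11-N, with overlap. The other 7 WRKY genes had negative log2FC values, and the list median was -0.07.

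Among the other defence genes, 12 tested members with a median of 0.02 and no call, NH3 and NH2 are relatives of NPR1, a co-regulator of salicylic acid responses. NH3 had 7.06, 4.38 and 5.08 FPKM in SNAC1-D, against 5.98, 2.70 and 3.46 FPKM in ZH11-D. It was higher in every pair with overlapping groups, and its log2FC was 0.44 (limma adjusted p with the block 0.483, unadjusted 0.00469). NH2 had a log2FC of -0.13.

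**Figure D3:**
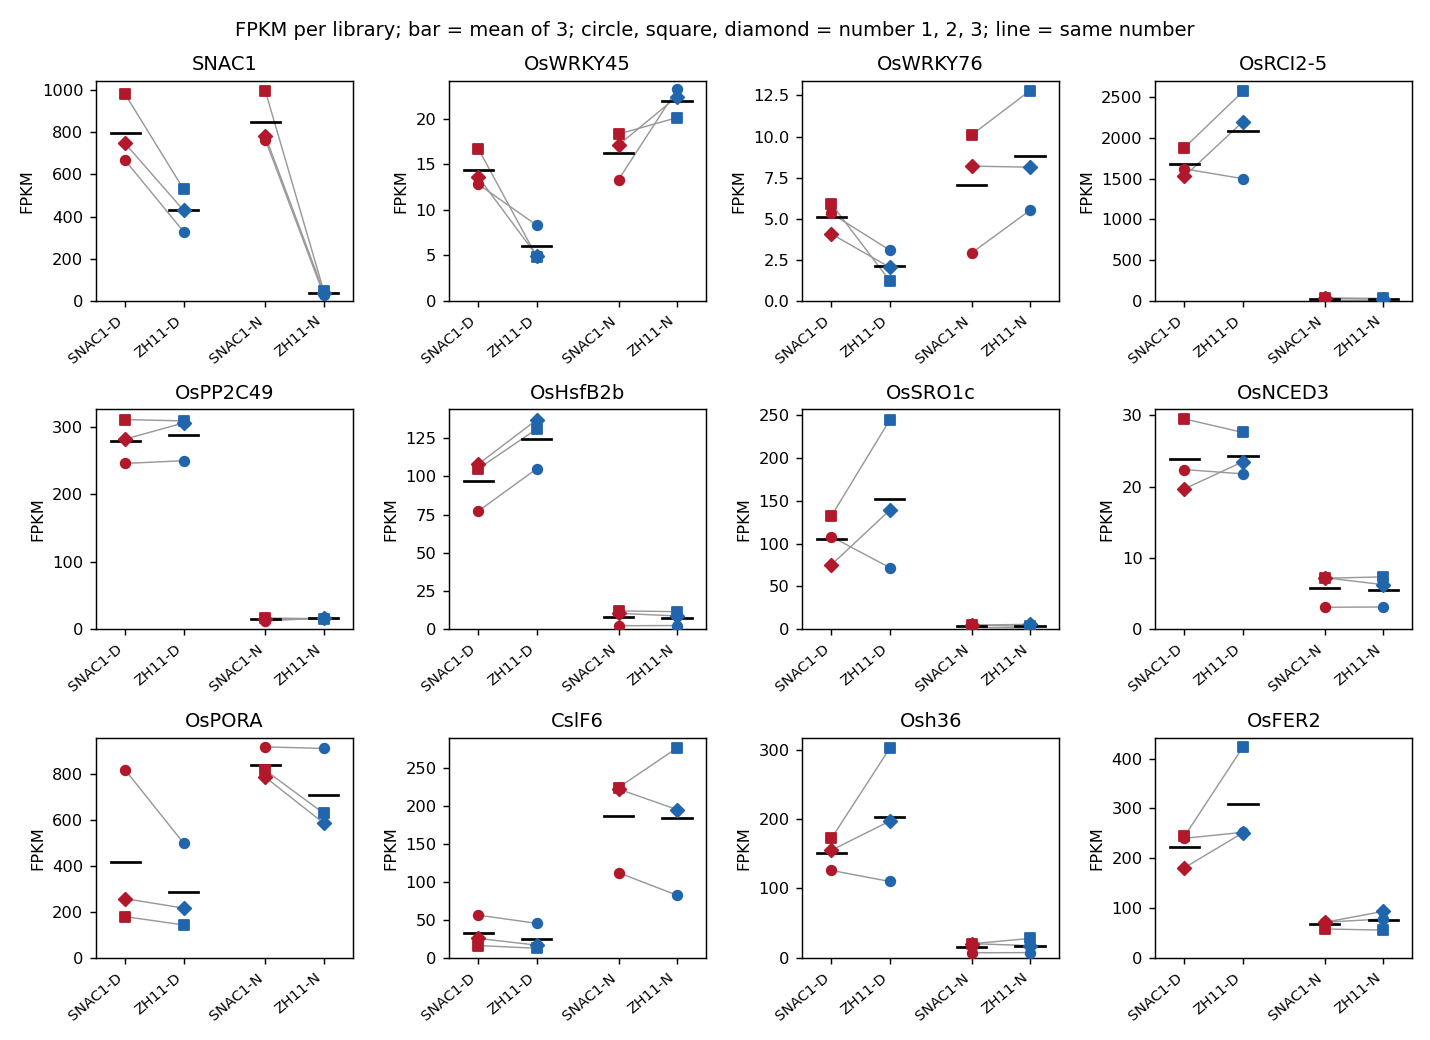
FPKM of 12 genes in the SNAC1-D, ZH11-D, SNAC1-N and ZH11-N libraries (3 each), with black bars for group means and lines joining libraries of the same number. SNAC1, OsWRKY45 and OsWRKY76 are higher in all 3 SNAC1-D libraries than in any ZH11-D library, OsFER2 is lower in all 3 without overlap, and the other 8 genes overlap between the droughted genotypes.

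The jasmonate and cytokinin lists gave no call. For jasmonate (11 tested members, median -0.02), OsJMT1, which makes the methyl ester of jasmonate, had 4.52, 1.93 and 2.94 FPKM in SNAC1-D, against 3.25, 1.40 and 1.18 FPKM in ZH11-D. It was higher in all 3 pairs (log2FC 0.60, limma adjusted p with the block 0.866). The regulator OsMYC2 had 35.9, 39.1 and 39.3 FPKM in SNAC1-D, against 34.1, 34.6 and 31.8 FPKM in ZH11-D, without overlap but with a log2FC of only 0.18. OsCOI1b, a jasmonate receptor, had -0.12. In the cytokinin list (9 tested, median 0.05) OsIPT7, a cytokinin synthesis gene, was at 0.315 to 0.557 FPKM in SNAC1-D and 0.11 to 0.30 FPKM in ZH11-D, and the response regulator OsRR2 had a log2FC of 0.26.

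The remaining hormone lists gave no call either. The auxin list had 11 tested members and a median of -0.03, the ethylene list 8 and -0.06, the gibberellin list 7 and -0.04, and the brassinosteroid list 6 and 0.00183. The auxin genes OsIAA6, a repressor, and OsGH3-2, which conjugates auxin, had log2FC values of -0.30 and 0.19. For ethylene, OsACS6 of its synthesis had -0.20 and OsEIL1 of its signalling -0.08. The brassinosteroid receptor OsBRI1 had -0.09 and its partner OsBAK1 -0.04, and the gibberellin genes RSG and OsGASR2 had -0.14 and 0.21.

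Calcium and MAP kinase signalling had 20 tested members, a median of -0.05 and no call. The kinase OsCIPK15 had 24.5, 28.4 and 22.6 FPKM in SNAC1-D, against 19.6, 41.7 and 30.6 FPKM in ZH11-D, with number 1 again opposite to the others. The calcium sensor OsCBL2 had a log2FC of -0.19 and the kinase OsEDR1 -0.20. In the transport list (9 tested, median -0.04), the cation exchanger OsCCX2 had 41.0, 45.0 and 38.9 FPKM in SNAC1-D, against 48.7, 55.8 and 46.9 FPKM in ZH11-D. Its groups did not overlap, and its log2FC was -0.27 (limma adjusted p with the block 0.6). The sodium antiporter OsNHX1 had -0.19.

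Among nutrient genes, the phosphate and iron list had 14 tested members and a median of -0.07. The ferritin OsFER2, an iron store, had 240, 244 and 181 FPKM in SNAC1-D, against 252, 423 and 251 FPKM in ZH11-D, without overlap. OsFER1 had 386, 421 and 313 FPKM in SNAC1-D, against 421, 711 and 403 FPKM in ZH11-D. Both were lower in all 3 pairs, with log2FC values of -0.44 and -0.41 and limma adjusted p with the block of 0.791 and 0.913. The ferritins are close copies on chromosomes 12 and 11, so that reads may have been divided between them. The phosphate transporter OsPT1 had a log2FC of 0.34, and in the nitrogen list (14 tested, median -0.03) OsNLA1 had -0.35 and the ammonium transporter LOC_Os01g61510 0.34. The osmolyte and sugar list (15 tested, median -0.10) gave no call, with 0.15 for OsTPS3 and -0.18 for the arginine decarboxylase OsADC1.

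In the chlorophyll synthesis and photosynthesis list (15 tested, median -0.03), OsPORA, which reduces protochlorophyllide in the light, had 816, 179 and 257 FPKM in SNAC1-D, against 498, 143 and 216 FPKM in ZH11-D. It was higher in SNAC1-D in each pair (log2FC 0.43, limma adjusted p with the block 0.72), but number 1 exceeded the other numbers in both genotypes. The plastid sigma factor OsSIG1 had 54.5, 55.1 and 55.3 FPKM in SNAC1-D, against 63.1, 68.7 and 63.4 FPKM in ZH11-D, without overlap and with a log2FC of -0.24. In the clock and light list (17 tested, median -0.06) OsPIL16 and OsDof12 had 0.21 and -0.14.

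The chlorophyll breakdown and senescence list had 8 tested members, all with a negative log2FC, and the lowest median of the lists at -0.21. The senescence gene Osh36 had 126, 172 and 155 FPKM in SNAC1-D, against 110, 302 and 197 FPKM in ZH11-D. NYC3, an enzyme of chlorophyll breakdown, had 70.3, 66.6 and 50.6 FPKM in SNAC1-D, against 56.9, 94.9 and 67.2 FPKM in ZH11-D. For both the SNAC1-D library was higher in number 1 and lower in numbers 2 and 3. The list medians by number were 0.35, -0.55 and -0.38, and without ZH11-D2 the list median was 0.03.

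The cell wall list had the highest median, 0.27, and all of its 6 tested members had a positive log2FC, with none called. CslF6, which makes mixed-linkage glucan, had 56.2, 16.2 and 25.6 FPKM in SNAC1-D, against 45.4, 12.6 and 16.7 FPKM in ZH11-D. The beta-expansin OsEXPB3 had 8.31, 0.506 and 1.32 FPKM in SNAC1-D, against 5.44, 0.343 and 0.383 FPKM in ZH11-D. Both were higher in SNAC1-D in each pair (log2FC 0.42 and 0.62, limma adjusted p with the block 0.799 and 0.889), and both were highest in number 1 of either genotype. OsXTH8, a xyloglucan transferase, and OsCHI had log2FC values of 0.36 and 0.18 and were also higher in all 3 pairs. OsCHI was counted in this list, although its part in cell walls was not examined. The medians by number were 0.24, 0.23 and 0.34. The list median was -0.037 without SNAC1-D1, 0.050 without ZH11-D2 and 0.59 without ZH11-D1.

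The median standard error of the log2FC fell to 0.123 with the block, against 0.229 without it. Across genes, which are not independent replicates, Pearson's r of the pair differences was 0.263 for numbers 1 and 2, 0.122 for 1 and 3, and 0.491 for 2 and 3. Without the DEGs these values were 0.0627, -0.104 and 0.371.

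ZH11-D2 stood apart from the other libraries in the stress lists. It had the highest median level in 21 of the 26 lists, and ZH11-D1 the lowest in 10. Of the lists, 13 had a positive median in number 1 and a negative one in numbers 2 and 3, 7 were negative in all 3 numbers and only the cell wall list was positive in all 3. In all, 22 list medians were below 0, and without ZH11-D2, a choice made after seeing the data, 12 were below 0 and 14 above. Of the 282 members, 30 were higher and 56 lower in SNAC1-D in all 3 pairs (30.5% of the same sign, against 29.9% of all features).

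**Figure D4:**
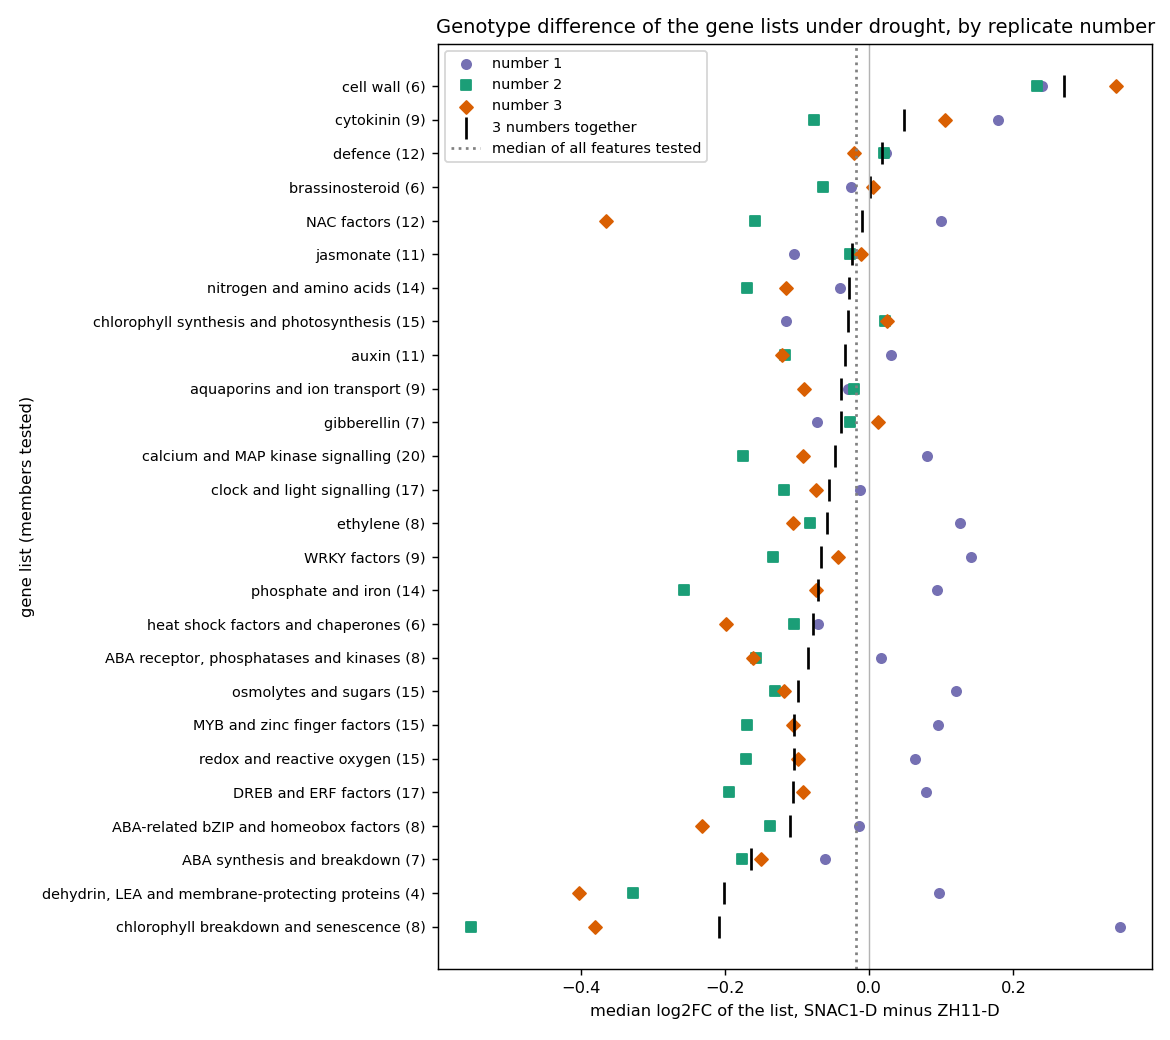
Median log2FC (SNAC1-D minus ZH11-D) of the 26 gene lists, with the number of members tested in brackets, within each replicate number (circle, square and diamond) and over the 3 together (black bar). The dotted line marks the median of all features, and the circles of number 1 lie to the right of 0 in 13 lists where the other numbers lie to the left.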

How the data were processed

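RNA-Seq was made from leaves, 3 libraries per group. Per the study's methods, reads were placed on the MSU 7.0 rice reference with a cloud service, and the authors deposited FPKM values per feature. The submitters' processing notes name HISAT2, StringTie and DESeq2 without their roles. Fragment counts were not used here, so that the counting error of low values is unknown. All 12 columns matched a label, and 0 columns were left unused. Values of 0.5 were added before log2, and features with a mean FPKM under 1 over the 12 libraries were left out. R 4.3.3 with limma 3.58.1 fitted all 4 groups, letting the prior variance follow mean expression (two-sided, Benjamini-Hochberg). The thresholds follow the study's methods, which give no test for the FDR. The fit was tested on simulated data. The methods call the 3 replicates independent without saying from which plants each came, so p-values measure the spread between these libraries.

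Pairing was read from the shared pots given in the labels, which do not say from which pot a library came, and from the data: deviations from the group means correlated by 0.589, 0.58 and 0.211 between libraries of the same number. ZH11-D3 correlated more with SNAC1-D2 (0.276) than with SNAC1-D3. The block was the replicate number within each watering condition.

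Gene names were those the study gives with MSU identifiers (576, of which 543 were tested), and 24 further list members were not used. Genes named were SNAC1, 2 DEGs per direction without a name, 9 genes of the study's text and, in each list, called members or the 2 with the smallest p. Members singled out for their block p, pair pattern or difference of effects were added after their values were seen. Members and lists were chosen with earlier results of these data known. Alternatives changed the pseudocount, filter, scaling, fit, block, thresholds and libraries. The ChIP-Seq tables were not used, since SNAC1-D has no ChIP-Seq library, and no sequence or annotation of MSU 7.0 was used.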

Additional observations from a re-analysis of the deposited data

Results flagged for a closer look

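The genotype effect differed between drought and watering, by limma with an adjusted p under 0.05, in 4 features, given here as drought minus watered log2FC. For SNAC1 (LOC_Os03g60080) the difference was -3.61 (standard error 0.36, limma adjusted p = 0.0168, with the replicate block 0.00427), and it passed in all 15 alternatives that kept every library. When libraries were left out the difference was -3.79 to -3.44 and the limma adjusted p 0.0195 to 0.109, and it passed only without ZH11-D1 (0.0195) or ZH11-D3 (0.0459). Its SNAC1-D and SNAC1-N libraries overlapped, while the lowest ZH11-D library (329 FPKM) stood above the highest ZH11-N library (44.8 FPKM).

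For newGene_1947 the difference was 2.99 (standard error 0.31, limma adjusted p = 0.0168) and for LOC_Os05g12120 it was 3.27 (standard error 0.36, limma adjusted p = 0.0204). LOC_Os01g62540 (chromosome 1), not a drought DEG, had 0.392, 0.334 and 0.535 FPKM in SNAC1-D and 3.16, 4 and 4.11 FPKM in SNAC1-N, and it was listed at 0 in all 6 ZH11 libraries. Its difference was -2.21 (standard error 0.25, limma adjusted p = 0.0204). Like newGene_1947 and LOC_Os05g12120, it met the filter on low values only through the SNAC1 libraries. The p-values of these features are therefore given as a description. These 3 features did not pass with the replicate block within each watering condition (limma adjusted p = 0.121, 0.121 and 0.196) or with a pseudocount of 0.1, and with quantile normalization only newGene_1947 of the 3 passed.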

How the results depend on the processing

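The count of 61 DEGs was 96 without a filter on low values, where 33888 features were tested. It was 17 with a mean FPKM of at least 5 and 20 with that filter and the replicate block, where 13933 were tested. When libraries were left out it was 35 to 60, with 35 without both libraries of number 2 and 39 without both of number 3. Scaling left the median log2FC of all features between -0.0185 and -0.0117 and the share of higher DEGs between 85.7% and 88.5%. Of the 282 list members, 0 were called with a mean FPKM of at least 5, either scaling, the 6 drought libraries only or any replicate block, and 0 to 1 when libraries were left out. Features with a difference of genotype effects numbered 14 without a filter, 2 with quantile normalization or the replicate block within each watering condition, and 1 with pseudocount 0.1, a mean FPKM of at least 5, the block over the 12 libraries or the within-condition block with median ratio scaling, quantile normalization, pseudocount 0.1 or a mean FPKM of at least 5, and 0 to 4 when libraries were left out. The drought DEGs also called when watered numbered 14 with a mean FPKM of at least 5 and 17 with that filter and the block (chosen after seeing the data). SNAC1 passed an adjusted p of 0.05 with 4 forms of the block, at a log2FC of 0.90 (over the 12 libraries, within conditions, or with pseudocount 1) and 0.91 (with median ratio scaling), and its log2FC was 0.72 to 1.07 when libraries were left out.

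Of 64 named genes besides SNAC1, 59 were called under no setting. Besides the adjusted p of SNAC1, the call of OsWRKY45 and the differences of genotype effects, the replicate block changed no call of these 64. Outside the 64, the DEGs LOC_Os08g13710 and LOC_Os06g38580 lost their calls with the block (limma adjusted p = 0.0806 and 0.0671). With the block and without both libraries of any one number, LOC_Os03g20740 missed the threshold (limma adjusted p up to 0.0526). Quantile normalization, with and without the block, turned OsPP2C49 to 0.025 and OsNCED3 to 0.0040. When libraries were left out, the log2FC of uncalled genes crossed 0 for OsPP2C49 (-0.14 to 0.045), OsPORA (-0.21 to 0.93), OsHOX24 (-0.22 to 0.029), OsNCED3 (-0.20 to 0.087), OsGASR2 (-0.25 to 0.78), OsSRO1c (-0.89 to 0.029), OsCIPK15 (-0.50 to 0.030), OsBAK1 (-0.073 to 0.027), OsCHI (-0.010 to 0.37), NYC3 (-0.46 to 0.00038), Osh36 (-0.70 to 0.026), OsDof12 (-0.32 to 0.011), OsDhn1 (-0.61 to 0.0060) and OsNAC10 (-0.022 to 0.29). The causes were not tested. Without counts, depth sets no limit that can be stated, and FPKM differences near 0 cannot be resolved.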

Other observations

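The droughted DEGs included 6 newly assembled loci (9.84% of the DEGs, against 2.08% of the features tested). Of these loci, newGene_1947, newGene_592, newGene_583 and newGene_1826 had ZH11-D means of 0.012, 0, 0 and 0.108 FPKM. They met the filter on low values only through the SNAC1 libraries, so the share carries no further weight. The 55 annotated DEGs lay on 11 of the 12 chromosomes by their identifiers, with none on chromosome 9. The closest neighbours had 11 tested loci between them. In 3 DEGs, chosen after their values were seen, the watered log2FC had the opposite sign: OsWRKY45, LOC_Os08g13710 and LOC_Os06g38580. LOC_Os08g13710 had 5.2, 4.46 and 3.82 FPKM in SNAC1-D, against 1.47, 1.58 and 1.57 FPKM in ZH11-D, and its groups overlapped when watered (log2FC -0.12). LOC_Os06g38580 had 79.7, 62.4 and 82.3 FPKM in SNAC1-D and was listed at 0 in every other library but ZH11-N2, at 22.3 FPKM. Neither was called with the replicate block (limma adjusted p = 0.0806 and 0.0671).

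Of the published genes that the study lists with a SNAC1 peak, a part of its SNAC1-bound genes, 475 were tested besides SNAC1. Only OsWRKY45 was a DEG under drought (0.305% of all features were), and their median log2FC was -0.05, against -0.02 for all features. Only 1 of the 61 DEGs has a name in the study, so a list of named genes could hold no other. The count therefore does not describe the SNAC1-bound genes without a name. That list was drawn from samples of the same series and is not independent of it.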
